A study of Mus musculus with 4 samples.

Results

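The interferon regulatory factors (IRFs) are a family of transcription factors, and the 8 genes described here (Irf1, Irf2, Irf3, Irf4, Irf5, Irf7, Irf8 and Irf9) were taken by name from the 55536 Ensembl genes measured. All 8 were counted in each of 4 libraries, and 7 of them reached 1 TPM (a transcript level scaled for length and library size) in every library. Irf4 did not.

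The libraries are polyA RNA-seq of bone-marrow-derived macrophages, which are macrophages grown in culture from bone marrow, of the mouse strain C57BL/6J. There is 1 group of 4 biological replicates. Its cells met Lipid A, the part of bacterial lipopolysaccharide sensed by the receptor TLR4, at 100 ng/mL for 12 h, were washed and kept 12 h without it, and met 100 ng/mL again for 60 min. The source names call the agent lipoprotein A and omit the washout, so the labels differ on both points. Each library has its own cell sample, but all 4 carry the same donor record, and age and sex are given as not collected. Untreated or once-treated cells were not analysed here, so every level is a state of these cells and not a response. Fewer cells of a type and less RNA per cell cannot be told apart in such bulk RNA.

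IRFs share a DNA-binding domain that recognises GAAA-type repeats, and differ in how they are switched on. Irf3 and Irf7 are activated by phosphorylation downstream of TLR4 and nucleic acid sensors and switch on type I interferon genes, while Irf9 joins Stat proteins in the complex ISGF3, which carries the signal of the interferon receptor to interferon-stimulated genes. Irf1 and Irf2 compete for the same sites as activator and repressor, Irf5 and Irf4 act in opposite directions downstream of the adaptor Myd88, and Irf8, with the factor PU.1, sets monocyte and macrophage identity.

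Irf7 was by far the most abundant of the 8 and Irf4 by far the least. The order was Irf7, Irf1, Irf5, Irf8, Irf2, Irf9, Irf3 and Irf4, and it was the same in both deposited quantifications. The summed level of the 8 genes was 3480 ± 414 TPM (SD, n = 4), or 0.348% of all gene TPM. Irf7 made up 66.6% ± 3.25 of that sum, Irf1 19.3% ± 2.78 and Irf5 5.20% ± 0.566. Irf1, Irf5 and Irf7 reached 100 TPM in every library, as did 1091 genes in all. The median of the 10407 genes detected at 1 TPM in every library was 17.2 TPM, and the 7 detected IRFs all stood above it.

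**Figure D1:**
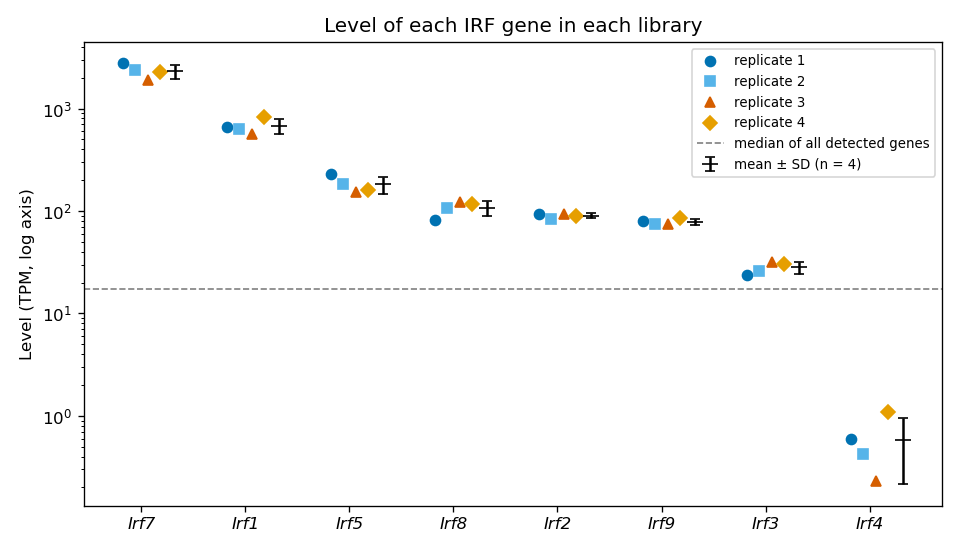
Level of each IRF gene in TPM (log axis), with 1 point per library, the mean ± SD at the right of each gene (n = 4) and a dashed line at the median of all detected genes. Irf7 averages 2323 TPM and Irf4 0.588 TPM, and 7 of the 8 genes lie above the line at 17.2 TPM.

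Neighbours in the order were compared within each library as a difference of log2(TPM + 0.1). A pair was said to differ beyond its spread where all 4 differences had 1 sign and their mean exceeded 2 SD. The exact two-sided sign-flip test over 4 libraries cannot go below p = 0.125, which is what 6 of the 7 neighbour pairs gave. Of these 7 pairs 4 differed beyond their spread: Irf7 over Irf1, Irf1 over Irf5, Irf9 over Irf3 and Irf3 over Irf4. The steps among Irf5, Irf8, Irf2 and Irf9 did not, so these 4 genes form a stretch from 181 to 78.7 TPM in which adjacent places are not resolved.

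Irf7, the interferon-induced member that amplifies type I interferon production, had 2756, 2400, 1888 and 2249 TPM in replicates 1 to 4, a mean of 2323 ± 360 TPM. Replicate 1 was highest and replicate 3 lowest, with a ratio of 1.46. Among detected genes, 42 had a mean at least as high, Irf7 included, which puts it at the 99.6th percentile. Its step above Irf1 was 1.79 ± 0.27 on the log2 scale, or 3.46-fold.

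Irf7 was divided among several transcripts. In the first quantification the most abundant, Irf7-201, held 46.6% ± 1.52 of the gene's transcripts, against a median of 79.9% for the top transcript over 5582 genes. Irf7-203 held 23.0% ± 1.33 and Irf7-202 held 16.7% ± 1.99, and their coding sequences give 457, 425 and 426 amino acids for Irf7-201, Irf7-203 and Irf7-202. The next was Irf7-210, annotated as a retained-intron transcript, at 6.37%, 8.01%, 8.87% and 6.44% in replicates 1 to 4. The stretches below, on the minus strand of chromosome 7 (mm10), are among those that tell these transcripts apart, and are shown because they lie within the coding region of Irf7-201 or an intron inside it. The transcripts differ at their ends too, and Irf7-203 runs on to position 141262706, against 141263183 for Irf7-201. The capitals mark the bases that the named transcript lacks or gains, and the lower-case letters are 12 flanking transcript bases on each side.
93 coding bases of Irf7-201 absent from Irf7-202 (chr7:141264223-141264315): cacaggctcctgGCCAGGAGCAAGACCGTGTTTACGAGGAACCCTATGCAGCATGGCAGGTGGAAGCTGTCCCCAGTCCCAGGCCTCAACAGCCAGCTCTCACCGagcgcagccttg
96 coding bases of Irf7-201 absent from Irf7-203 (chr7:141264560-141264655): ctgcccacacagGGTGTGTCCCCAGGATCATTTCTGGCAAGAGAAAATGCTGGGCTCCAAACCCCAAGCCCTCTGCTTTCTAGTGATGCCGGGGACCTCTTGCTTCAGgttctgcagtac
69-base intron kept in Irf7-210 (chr7:141264656-141264724): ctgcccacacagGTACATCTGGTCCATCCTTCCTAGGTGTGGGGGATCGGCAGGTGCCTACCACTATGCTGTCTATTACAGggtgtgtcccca
The kept intron ends where the 96 bases begin, so both events follow the same exon end. Both removed stretches have a length divisible by 3, and the reading frame continues across them. The second quantification gave the same order of mean shares, with 58.3% ± 2.08 for Irf7-201, 13.4% ± 2.19 for Irf7-203 and 11.6% ± 1.92 for Irf7-202. In replicate 1 the last pair was reversed there, with 11.3% for Irf7-203 and 14.4% for Irf7-202.

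Irf3, which is present before stimulation in most cells and starts the first wave of interferon, was the lowest of the 7 detected members. It had 23.95, 26.0, 31.9 and 30.6 TPM in replicates 1 to 4, a mean of 28.1 ± 3.73 TPM, at the 63.3rd percentile of detected genes. Irf7 exceeded it by 6.36 ± 0.41 on the log2 scale, which is 82.2-fold, and did so in 4 of 4 libraries.

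Much of the Irf3 level in TPM lay on transcripts annotated with a retained intron, which are not expected to make the protein. The mean share was 51.7% ± 2.89 in the second quantification and 32.7% ± 5.47 in the first (SD, n = 4), where the libraries held 31.4%, 31.3%, 40.4% and 27.5%. The median over 3857 genes with such a transcript and at least 10 TPM was 2.64% in the second quantification and 1.69% in the first, and Irf3 stood at the 98.2nd and the 95.1st percentile. For the other 5 members with such a transcript the share ran from 0.588% (Irf1) to 9.52% (Irf7) in the first quantification. Irf3-207 had the highest share of the retained-intron transcripts of Irf3, with 27.1% in the second quantification and 14.6% in the first. The shares are of TPM, so short transcripts reach a given share on fewer counts. In replicate 1 of the first quantification, Irf3-210 (629 bases) held 9.51% on 15.1 counts and Irf3-212 (635 bases) 4.90% on 7.92. The whole gene had 582 counts there, of which Irf3-207 had 86.5. The intron kept in Irf3-207 is shown in capitals, with 12 flanking bases on each side, because the share of Irf3-207 was the highest of these. Irf3-210 and Irf3-212 lie outside this intron, so their parts of the retained-intron share do not rest on it.
98-base intron kept in Irf3-207 (chr7:45000547-45000644, plus strand): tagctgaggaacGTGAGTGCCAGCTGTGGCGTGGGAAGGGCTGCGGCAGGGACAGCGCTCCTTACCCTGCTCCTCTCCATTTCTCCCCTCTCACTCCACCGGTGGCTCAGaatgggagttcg
The intron begins with GT and ends with AG, the usual splice site letters.

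The top transcript of Irf3 differed between the quantifications. Irf3-201 held 17.1% ± 6.20 in the second and 45.2% ± 6.50 in the first. Irf3-201, Irf3-213 and Irf3-202 each encode 419 amino acids and together held 42.3% in the second quantification and 62.1% in the first. Irf3-202 starts downstream of Irf3-201, at position 44997949 of chromosome 7 against 44997648, and was found in some libraries only. It had 0 and 0 counts in replicates 3 and 4, and 70 and 80 counts in replicates 1 and 2. Its share was 0% in replicates 3 and 4, against 14.0% in replicate 1 and 17.1% in replicate 2, and the second quantification gave 0% in both, against 18.5% and 15.7%. Replicates 3 and 4 are those deposited with 4 read files each, and replicates 1 and 2 those with 6. Among 39004 transcripts 7 (0.0179%) showed this pattern in both quantifications, meaning 0 in both 4-file libraries and at least 10% in both 6-file libraries, while 0 showed the reverse. In the first quantification alone 20 showed it and 41 showed the reverse. The pattern was seen in the values first and then counted. What the read files hold was not given in the labels, and their part in this pattern was not tested. The gene Bcl2l12, on the opposite strand, overlaps 1065 bases at the start of Irf3 and had 8.13 TPM. Whether counting used strand is not given in the sources used here.

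**Figure D2:**
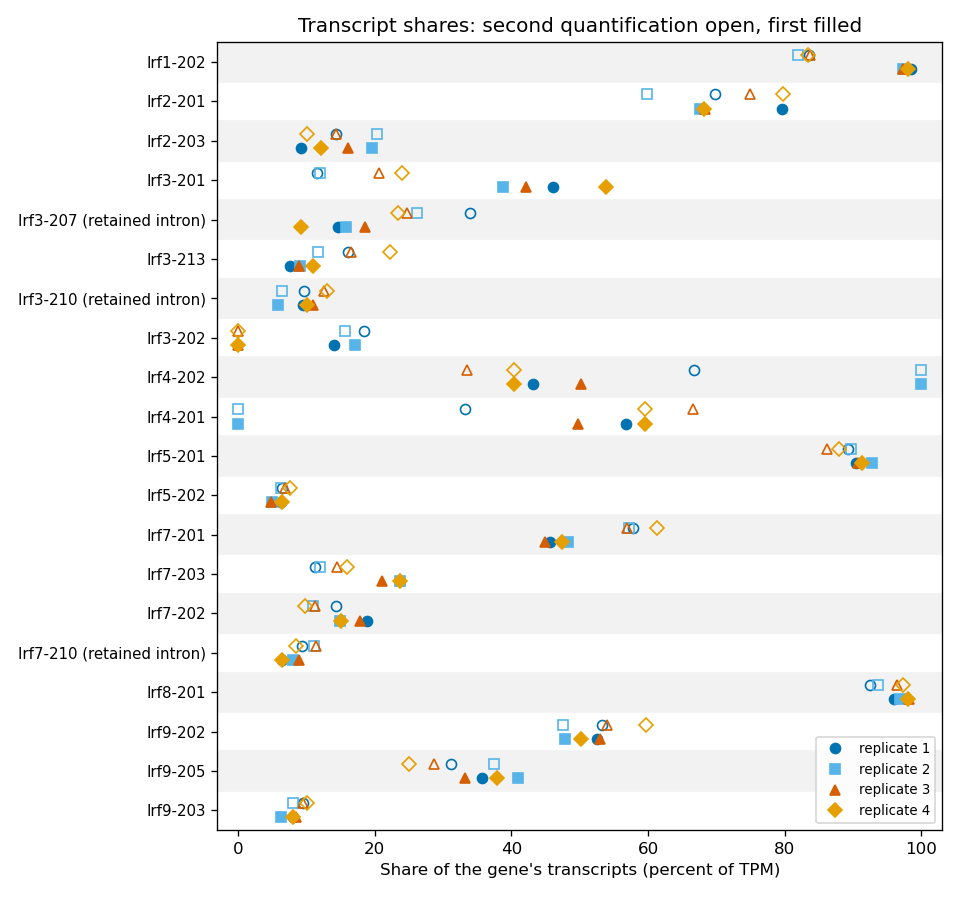
Share of each transcript within its gene in percent, for IRF transcripts with a mean share of at least 5%, with open points for the second quantification, filled points for the first and 1 shape per library. Irf1-202, Irf5-201 and Irf8-201 hold nearly all of their genes in the first quantification, Irf7, Irf3 and Irf9 are divided among several transcripts, and Irf3-202 is at 0% in replicates 3 and 4.

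Irf9, the DNA-binding part of ISGF3, had 79.6, 74.9, 74.6 and 85.9 TPM in replicates 1 to 4 and a mean of 78.7 ± 5.29 TPM. Its partner Stat2 was higher, at 371 ± 32.9 TPM. Irf9 lay below Stat2 by a log2 difference of -2.23 ± 0.17, in 4 of 4 libraries, and the difference was beyond its spread (exact two-sided sign-flip p = 0.125, the smallest possible).

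Irf9 transcripts were divided between alternative first exons. Irf9-202 held 52.6%, 47.9%, 53.0% and 50.2% in replicates 1 to 4, and Irf9-205 held 35.6%, 41.0%, 33.3% and 38.0%. Irf9-202 was the higher in each library, and the shares of the pair did not overlap. Irf9-205 encodes 417 amino acids and Irf9-202 encodes 399. The 53 coding bases of the first exon of Irf9-205, absent from Irf9-202, are shown in capitals, followed by 12 bases that both share (the exon lies at chr14:55604579-55604721, plus strand).
Start of the Irf9-205 coding sequence: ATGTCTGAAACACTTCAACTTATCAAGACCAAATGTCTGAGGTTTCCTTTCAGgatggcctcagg
The annotated coding sequence of Irf9-202 starts at the ATG inside the lower-case letters. The gene Rnf31, on the same strand, overlaps the first 123 bases of Irf9 and had 33.2 TPM.

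Irf1, an activator induced by interferon and by NF-kB, was the second most abundant member, with 658, 638, 561 and 827 TPM in replicates 1 to 4 and a mean of 671 ± 112 TPM. Replicate 4 was the highest. Irf2, its repressor counterpart, had 93.1, 84.4, 94.5 and 88.7 TPM and a mean of 90.2 ± 4.56 TPM. Irf1 exceeded Irf2 by 2.88 ± 0.27 on the log2 scale, or 7.37-fold, in 4 of 4 libraries (exact two-sided sign-flip p = 0.125, the smallest possible).

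The promoters of Irf1, Irf2 and Irf8 were searched for the letters of 4 kinds of site that interferon and Toll-like receptor signals act on, and they are shown because these 3 are the only members with a match. The searched letters, on both strands in the 250 bases before each start, were GAAA, any 2 bases and GAAA for the IRF site called ISRE; TTCNNNGAA for the Stat site called GAS; GGGA, any base and TTTCC, or GGGGA, any base and TCCC, for NF-kB; and GGAA, any 2 bases and GAAA for the joint PU.1 and IRF site called EICE. Of 32851 promoter windows 2.98% held ISRE letters, 7.02% GAS letters, 0.356% the first form and 0.289% the second form of the NF-kB letters, and 2.30% EICE letters. The Irf1 window held GAS letters from 90 to 82 bases before the start and NF-kB letters from 13 to 4 bases before it. The Irf2 window held ISRE letters from 241 to 232, EICE letters from 247 to 238, which overlap them, and GAS letters from 224 to 216 bases before the start. The Irf8 window held GAS letters at 171 to 163 and at 153 to 145 bases before the start. Windows of Irf3, Irf4, Irf5, Irf7 and Irf9 held none of these letters, which says nothing of the factors themselves. Sequences are from RefSeq (GRCm38.p6), 5′ to 3′ on the gene's strand, with matches in capitals.
Irf1 promoter (chr11:53769764-53770013, plus strand): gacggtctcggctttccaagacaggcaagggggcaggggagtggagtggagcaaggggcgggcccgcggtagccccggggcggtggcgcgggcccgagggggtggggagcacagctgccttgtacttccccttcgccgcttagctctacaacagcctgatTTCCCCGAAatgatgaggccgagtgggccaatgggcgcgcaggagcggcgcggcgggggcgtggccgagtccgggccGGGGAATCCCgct
Irf2 promoter (chr8:46739495-46739731, plus strand): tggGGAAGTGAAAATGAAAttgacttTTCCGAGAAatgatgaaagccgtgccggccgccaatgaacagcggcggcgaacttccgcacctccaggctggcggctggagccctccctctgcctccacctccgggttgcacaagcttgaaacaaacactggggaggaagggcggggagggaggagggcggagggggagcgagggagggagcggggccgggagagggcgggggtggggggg
Irf8 promoter (chr8:120736108-120736357, plus strand): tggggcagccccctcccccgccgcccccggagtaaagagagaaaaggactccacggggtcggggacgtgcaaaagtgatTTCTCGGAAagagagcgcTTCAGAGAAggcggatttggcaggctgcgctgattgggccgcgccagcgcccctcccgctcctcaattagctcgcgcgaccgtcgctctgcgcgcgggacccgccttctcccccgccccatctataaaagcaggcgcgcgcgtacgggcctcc
A match is a match of letters and not a measured binding site, and no binding was measured here.

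Irf1 came almost wholly from Irf1-202 in the first quantification, but not in the second. Irf1-202 held 83.1% ± 0.82 in the second quantification and 97.8% ± 0.62 in the first, and Irf1-208, a shorter transcript of 199 amino acids against 329, held 14.1% ± 0.59 and 0.268% ± 0.28. In each library the second quantification gave Irf1-208 at least 13.4% and the first at most 0.690%. Irf1-208 lacks, among other parts, the 123 coding bases in capitals below, which are shown because reads across them separate the pair.
123 coding bases of Irf1-202 absent from Irf1-208 (chr11:53774346-53774468, plus strand): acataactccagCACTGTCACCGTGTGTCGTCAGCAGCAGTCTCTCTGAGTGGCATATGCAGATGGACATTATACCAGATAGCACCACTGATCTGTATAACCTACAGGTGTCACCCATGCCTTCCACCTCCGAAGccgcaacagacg
Irf2 was mainly Irf2-201, at 69.7%, 59.8%, 75.0% and 79.7% in replicates 1 to 4 in the second quantification. The first gave 79.6%, 67.6%, 68.3% and 68.1%, with replicate 1 apart, which it was not in the second. The next was Irf2-203, an incomplete 352-base transcript, at 9.28% to 19.5% in the first quantification, on 17.05 to 44.25 counts. These shares are of TPM too, so short transcripts weigh more in them than in counts. In first-quantification counts Irf2-201 held 2959 of 3158, 1976 of 2163, 4238 of 4586 and 3314 of 3562 in replicates 1 to 4. The gene Gm17334, annotated as protein-coding on the opposite strand, lies inside Irf1 and had 4.82 TPM.

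Irf8, the lineage factor that acts with PU.1, had 82.5, 107, 122 and 117 TPM in replicates 1 to 4, a mean of 107 ± 17.5 TPM, with replicate 1 lowest. Irf8-201 held 97.3% ± 1.04 of it, and the transcript encodes 424 amino acids. The annotated gene Gm20388 spans all of Irf8 on the same strand and had 26.3 TPM, but shares 0 exon bases with it. Spi1, which encodes PU.1, averaged 367 ± 33.7 TPM.

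Irf5, which drives inflammatory cytokine genes downstream of Myd88, had 231, 183, 153 and 160 TPM in replicates 1 to 4, a mean of 181 ± 35.2 TPM, with replicate 1 highest. Irf5-201 and Irf5-202, which both encode 497 amino acids, together held 97.0% ± 1.04 of the gene. The step from Irf5 to Irf8 was 0.76 ± 0.52 on the log2 scale. Both 4-file libraries had the smaller steps, averaging 0.39, against 1.12 in the 6-file libraries. The step from Irf8 to Irf2 was 0.23 ± 0.27, positive in 3 of 4 libraries and negative in replicate 1 (exact two-sided sign-flip p = 0.25), and that from Irf2 to Irf9 was 0.20 ± 0.12.

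Irf4, which counters Irf5 at Myd88 and is known in macrophages for alternative activation, had 0.60, 0.42, 0.23 and 1.10 TPM in replicates 1 to 4. These rest on 48, 29, 30 and 122 counts, with exact 95% Poisson intervals of 35.4 to 63.6, 19.4 to 41.6, 20.2 to 42.8 and 101 to 146, which cover counting error only. The count of replicate 4 lies above the intervals of the other 3, which differ in depth. Irf5 exceeded Irf4 by 8.18 ± 0.78 on the log2 scale and Irf8 exceeded it by 7.43 ± 0.87, each in 4 of 4 libraries. Irf3, the next gene above Irf4, exceeded it by 5.51 ± 0.83.

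Irf4 transcripts differ by 3 bases, a repeated CAG at the start of an exon that Irf4-201 (450 amino acids) keeps and Irf4-202 (449 amino acids) lacks. The 3 bases are in capitals, with 24 flanking bases on each side, because no other stretch separates the pair.
CAG kept in Irf4-201 (chr13:30753445-30753447, plus strand): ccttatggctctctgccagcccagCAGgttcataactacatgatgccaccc
Irf4-201 held 56.8%, 0%, 49.8% and 59.6% in replicates 1 to 4. The share of 0% stood in replicate 2, which had 29 counts for the whole gene, and the second quantification also gave 0% there. With so few counts, only some of which can cross these 3 bases, no difference between libraries was detectable.

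Because the cells form 1 group, the members were next compared between replicate libraries. The test was edgeR's, of each gene's deviance over 4 libraries against the dispersion trend, with Benjamini-Hochberg adjustment over all genes tested. It called 305 of 11679 genes (2.61%) at an adjusted p up to 0.05. None of the 8 IRFs was called, by this test or with DESeq2's dispersion trend. An unadjusted p under 0.05 was found for 1 of the 8, Irf4, with each. Of all 11679 genes, 910 had one in edgeR's test and 936 with DESeq2's trend. The p-values measure the spread between these libraries, which share a donor record. In CPM (counts scaled to library size), Irf4 had 2.02, 1.22, 0.68 and 3.42 in replicates 1 to 4. Its SD of log2 CPM was 0.93, exceeded by 1.60% of the genes tested, and its adjusted p was 0.199 in edgeR's test (unadjusted 0.00838). The other 7 had SDs between 0.14 (Irf3) and 0.34 (Irf5), with adjusted p = 1.00.

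**Figure D3:**
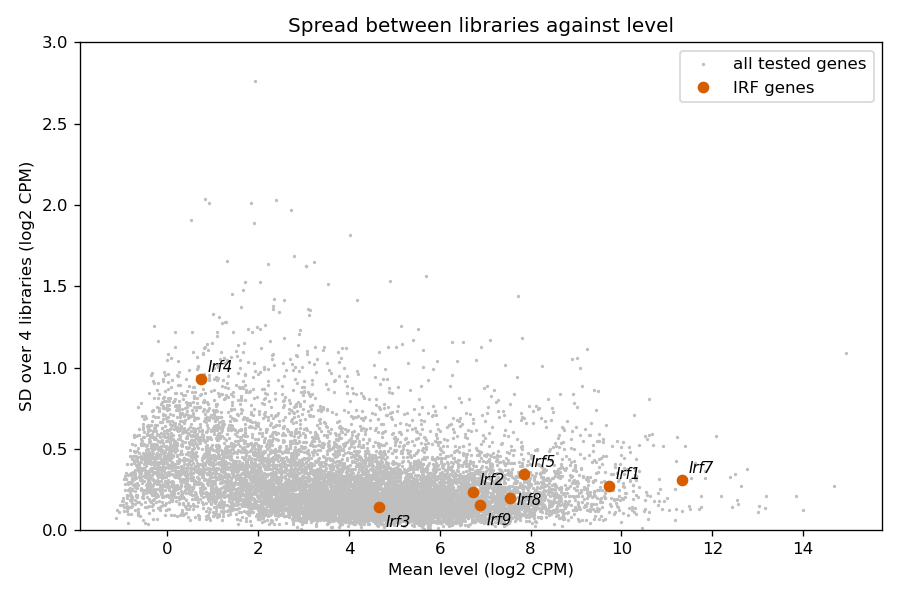
SD of log2 CPM over the 4 libraries (vertical axis) against mean log2 CPM (horizontal axis) for the 11679 genes tested (grey) and the 8 IRF genes (orange). Irf4 has the largest SD of the 8 at 0.93, and the other 7 lie between 0.14 and 0.34 within the body of the grey points.

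The 3 tested genes whose pattern over the 4 libraries lay nearest to that of Irf4 were Tmem200b, Tnfsf9 and Il10, at distances of 0.17, 0.39 and 0.49 in centred log2 CPM. Tnfsf9, which encodes the ligand of the receptor 4-1BB, had 233, 205, 89.5 and 438 CPM in replicates 1 to 4. Il10, an anti-inflammatory cytokine, had 125, 51.3, 31.2 and 179 CPM. Tmem200b encodes a membrane protein and had 0.969, 0.629, 0.34 and 1.63 CPM. Like Irf4, each of them was highest in replicate 4 and lowest in replicate 3. They were picked for this likeness from 11679 genes over 4 libraries, so it is a description without a test.

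**Figure D4:**
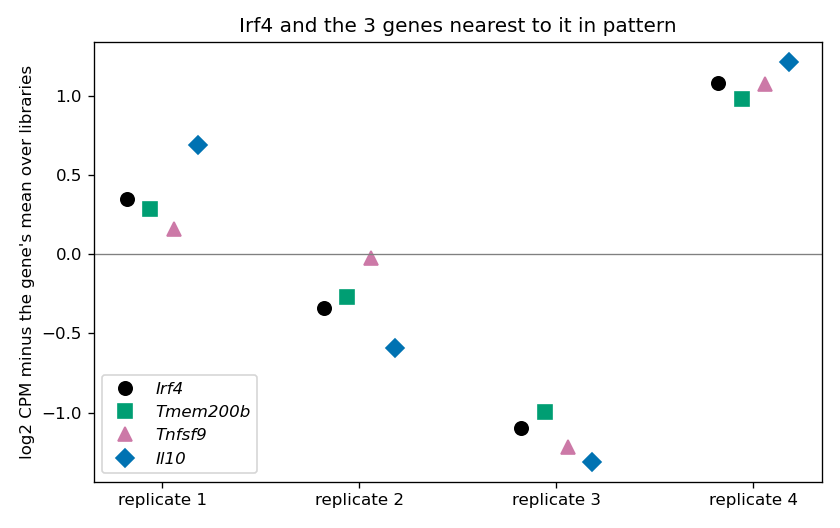
log2 CPM of Irf4, Tmem200b, Tnfsf9 and Il10 in each library, minus the gene's own mean over libraries. All 4 genes are highest in replicate 4 and lowest in replicate 3, and Tmem200b is nearest to Irf4 at a distance of 0.17.

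The machinery around the IRFs was present. Of 22 sensors, adaptors and kinases upstream of IRFs, 22 were at 1 TPM in every library. None of the 22 was called variable, beside 2.61% of all genes tested, and lists this short cannot resolve such a share. The most abundant were Cd14, the co-receptor for lipopolysaccharide, at 516 ± 247 TPM, Ddx58, the RNA sensor RIG-I, at 251 ± 18.4 TPM, and Ikbke, an IRF kinase, at 197 ± 24.6 TPM. Of the 9 genes of the interferon receptor chain all 9 were detected and none was called, with Ifnar2, a chain of the type I receptor, at 181 ± 18.9 TPM. Of 10 DNA-binding partners 9 were detected and none was called. After Spi1 came Jun at 136 ± 28.2 TPM and Batf at 135 ± 27.2 TPM, while Spib, the relative of PU.1 used in B cells and plasmacytoid dendritic cells, averaged 0.475 TPM. Of 10 IRF-binding or IRF-limiting factors all 10 were detected. The highest were Trex1, a DNA-degrading enzyme, at 588 ± 120 TPM, Usp18, which limits interferon receptor signalling, at 408 ± 128 TPM, and Peli1, a ubiquitin ligase, at 67.7 ± 16.8 TPM. The only one called was Socs1, an inhibitor of Jak kinases, with 9.52, 6.74, 2.28 and 2.04 TPM in replicates 1 to 4.

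Among genes reported as IRF targets in other work, the variability test called a few, beside 2.61% of all genes tested. The lists are too short to set their own shares against that. Of 15 ISGF3 targets 15 were detected, 13 of them at 100 TPM in every library, with Isg15 at 2964 ± 959 TPM, Bst2 at 2446 ± 464 TPM and Ifit2 at 2399 ± 479 TPM. The 1 called was Cmpk2, with 1555, 840, 572 and 493 TPM in replicates 1 to 4. Among 8 tested targets of Irf1 the test called Nos2, the inducible nitric oxide synthase, at 17.95, 34.2, 4.35 and 11.0 TPM, and Ciita, the master regulator of MHC class II genes, at 0.62, 6.17, 1.91 and 5.73 TPM. The highest of the Irf1 targets were the chemokine gene Cxcl10 at 2726 ± 945 TPM, the guanylate-binding protein gene Gbp2 at 947 ± 62.2 TPM and Casp1, the inflammasome protease, at 302 ± 84.3 TPM. Among 3 tested targets of Irf5 it called Il6, at 26.8, 68.2, 7.04 and 50.7 TPM. Tnf was the highest of these at 2966 ± 878 TPM, while the interleukin subunit genes Il12a and Il23a averaged 0.432 and 0.93 TPM. Among 6 tested targets of Irf3 and Irf7 it called Ifnb1, which encodes interferon beta, at 50.8, 27.96, 11.4 and 17.3 TPM. The chemokine gene Ccl5 was the highest of these at 20028 ± 3557 TPM. Ifna4, another type I interferon gene, had 1 count in replicate 2 and none in the other libraries. Among 8 tested targets of Irf8 none was called, with the protease gene Ctss at 4581 ± 427 TPM, Cd74, the invariant chain of MHC class II, at 616 ± 261 TPM and Cybb, a subunit of the phagocyte oxidase, at 504 ± 46.8 TPM. Replicate 3 was the lowest library for Nos2, Il6 and Ifnb1, while Cmpk2 was lowest in replicate 4 and Ciita in replicate 1. Among the members, none of which was called, Irf1, Irf4, Irf5 and Irf7 were lowest in replicate 3 in first-quantification TPM. Irf9 was too, but only by 74.6 against 74.9 TPM in replicate 2, and in CPM it was lowest in replicate 2. Irf2 was lowest in replicate 2, and Irf3 and Irf8 in replicate 1. In the second quantification Irf1, Irf5, Irf7 and Irf9 were lowest in replicate 2 instead. The share of all genes lowest in replicate 3 was not counted.

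Markers placed the cells as macrophages. All 15 macrophage markers were at 1 TPM in every library, with Lyz2, Ctsb and Ctsd highest. Defining markers of other cell types that use Irf4 or Irf8 were low, while some wider markers of those types were detected. Of 9 B and plasma cell markers 7 were below 1 TPM in at least 1 library, with Pax5 at 0.0375 TPM and Ms4a1 at 0.04 TPM, while Cd79b averaged 3.67 TPM and Sdc1 2.41 TPM. The summed level of the list was 6.07 to 9.94 TPM, highest in replicate 3, where Irf4 was lowest. Cd79b alone made up 6.36 TPM of the sum in that library. Conventional dendritic cell markers summed to 7.97 to 10.6 TPM, also highest in replicate 3. Most of the sum was Ccr7 and Batf3, which had 3.68 and 5.28 TPM in replicate 3. These 2 of the 9 averaged 3.88 and 3.63 TPM and were detected in every library. Flt3 averaged 0.107 TPM, Zbtb46 0.158 TPM and Clec9a 0.307 TPM. In replicate 3 Zbtb46 was at its lowest, 0.07 TPM, and Clec9a at its highest, 0.77 TPM. Of 7 plasmacytoid dendritic cell markers 3 were detected in every library, namely Bst2, also an interferon-stimulated gene, at 2446 TPM, Tcf4 at 32.2 TPM and Cox6a2 at 6.46 TPM, and Siglech averaged 0.29 TPM. That list summed to 1980 to 2882 TPM, nearly all of it Bst2, and was lowest in replicate 3. Of 8 T and NK cell markers none was detected in every library. Neutrophil markers differed between libraries, with a sum of 125, 12.7, 98.3 and 12.2 TPM in replicates 1 to 4, nearly all of it S100a8 and S100a9, which were both called, while Ly6g was at 0 in all 4 libraries. Of the 8 IRFs, Irf2 had its higher levels in the same libraries, with 93.1 and 94.5 TPM in replicates 1 and 3. Replicates 2 and 4 had 84.4 and 88.7 TPM of Irf2, which was not called variable. Its highest library was 1.12 times its lowest. Irf2 was picked from the 8 members for this split, so it is a description without a test. How many of all genes split this way was not counted, and the part of neutrophil RNA in this was not tested.

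The libraries differ in 1 recorded technical way, the number of read files. In edgeR's quasi-likelihood test of 4-file against 6-file libraries, 0 of 12667 genes were called (0%), with 897 at an unadjusted p under 0.05, while DESeq2 called 95. None of the IRFs was called by either tool, and none had an unadjusted p under 0.05. Of the 8 members 4 did not overlap between the 4-file and the 6-file libraries in CPM, as did 38.8% of all genes. Irf3 averaged 27.1 CPM in the 4-file libraries and 23.4 CPM in the 6-file libraries, and Irf8 207 and 167 CPM. Irf5 averaged 199 CPM in the 4-file libraries and 276 CPM in the 6-file libraries, a log2 difference of -0.47 ± 0.23 (SE), and Irf7 averaged 2263 and 2996 CPM, a log2 difference of -0.40 ± 0.28 (SE).

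The second quantification gave lower mean log2 TPM than the first for the 7 detected IRFs, as it did for most genes. The median difference over 12300 genes was -0.29 on the log2 scale, and it was -0.41, -0.59, -0.04 and -0.13 in replicates 1 to 4. With a rule of an adjusted p up to 0.05 in limma and a difference of at least 1 log2 unit, 1494 genes (12.1%) were called and none of the 7 IRFs was. Irf7 and Irf9 met the limma rule alone, with adjusted p = 0.0238 and 0.0464, but not the rule on size. Unadjusted, 4 of the 7 IRFs and 6802 of the 12300 genes had a limma p under 0.05. The differences of the 7 IRFs lay between -0.37 (Irf7) and -0.09 (Irf1). Relative to the median of all genes, they lay between -0.07 (Irf7) and 0.21 (Irf1). Irf1 stood above the median of its library in all 4 libraries, by 0.16, 0.16, 0.26 and 0.26. Irf7 stood below it in all 4, at -0.06, -0.05, -0.08 and -0.10. Irf4 was below the 1 TPM filter and was not tested. In this quantification it averaged 0.458 TPM, against 0.588 TPM in the first.

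**Figure D5:**
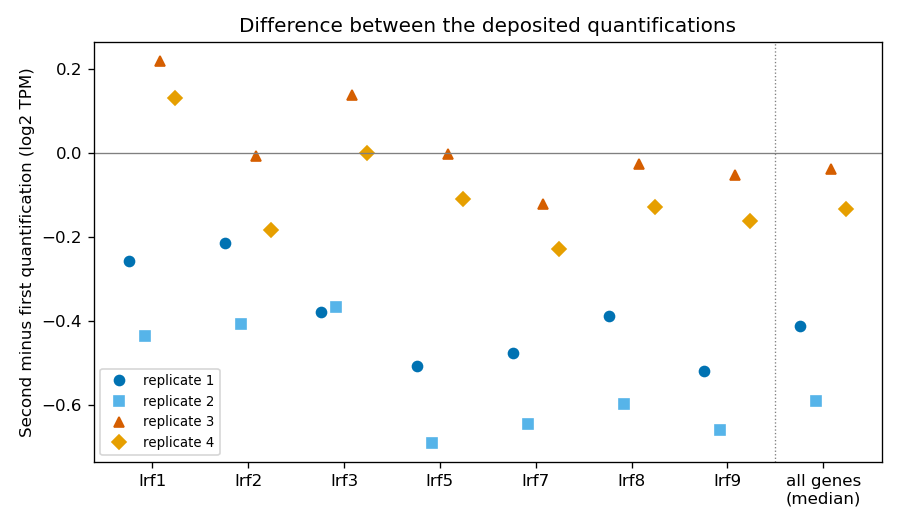
Difference of log2(TPM + 0.1), second minus first quantification, for 7 IRF genes and for the median of 12300 genes, with 1 point per library. The points of replicates 3 and 4 lie above those of replicates 1 and 2 for each gene, as does the median of all genes at -0.04 and -0.13, against -0.41 and -0.59.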

How the data were processed

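PolyA RNA-seq was deposited for 4 libraries of 1 group. Per the deposited records the assembly is mm10 and the annotation GENCODE M21. The programs are not given in the sources used here. Per the file headers, the first quantification holds an expected count per gene or transcript, TPM and FPKM scaled by the authors, and for transcripts a percent of their gene's total, also as deposited. The second quantification, per the file headers, holds an estimated count and TPM per transcript, summed here per gene. Its shares in percent were computed here from the deposited TPM. Replicates 1 to 4 held 26613690, 23167140, 41453162 and 34946569 gene counts, with 3 counts, 0.0724 to 0.129 CPM, as the limit a count of 0 allows. Mitochondrial genes held 1.94% to 4.77% of TPM and ribosomal RNA genes 1.29% to 7.14%.

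Counts were rounded and tested with edgeR 4.0.16 under R 4.3.3 (TMM scaling after filterByExpr; variability by deviance over the dispersion trend with 3 degrees of freedom, and the quasi-likelihood test for the read-file split) and DESeq2 1.42.0. Quantifications were compared with limma 3.58.1 on log2(TPM + 0.1). Genes needed 1 TPM in every library for detection. The rest used Python 3.11.15, numpy 2.4.6, pandas 2.3.3, scipy 1.17.1 and matplotlib 3.10.9. The fits across genes were tested on simulated data. Transcript sequences are from the GENCODE transcripts of the same build and promoters from RefSeq.

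The members and the 17 gene lists were chosen with earlier results of these data known. Named genes are all members, and from each list the 3 highest by mean TPM, those called variable, those with a mean under 1 TPM and the genes of fixed pairs; long lists are summarised, and some items are not reported here. The genes nearest in pattern are given for the member with the largest SD, since none was called variable. Alternatives were other scalings, filters, pseudocounts, tools and quantifications and leaving out each library.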

Additional observations from a re-analysis of the deposited data

Results flagged for a closer look

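In groups of 4 libraries a value was flagged where the gap between an extreme library and its nearest neighbour exceeded Dixon's 95% critical value as a share of the whole range, which chance does in about 1 in 20 groups. The number of groups tested was 36. The share of Irf7-203 was flagged at 0.96 of the range, with 21.04% in replicate 3 and 23.7% to 23.8% in the other libraries. The second quantification gave Irf7-203 11.3%, 11.9%, 14.5% and 15.9% in replicates 1 to 4, where replicate 3 did not stand apart. The share of Irf2-201 was flagged at 0.943, with 79.6% in replicate 1, which did not stand apart in the second quantification. The shares of Irf4-201 and Irf4-202 were both flagged at 0.835, since they sum to the whole, with 0% and 100% in replicate 2 at 29 counts. The log2 difference of Irf8 minus Irf2 was flagged at 0.912, with -0.17 in replicate 1 and 0.35 to 0.40 in the others. No level in TPM of a member, nor their sum, was flagged.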

How the results depend on the processing

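The order of the 8 genes, the 7 genes detected and the reported fixed pairs beyond their spread were the same under every alternative run. For the order, FPKM and the scaling without mitochondrial and ribosomal RNA are no check. Each multiplies all genes of a library by the same factor, so the order could not change. Neighbour pairs beyond their spread numbered 4 to 6. Irf5 over Irf8 passed without replicate 1 (0.51) and within 4-file (0.39) and 6-file libraries (1.12), each of 2 libraries. Irf8 over Irf2 passed without replicate 1 (0.37) and within the 4-file libraries (0.38), and Irf2 over Irf9 without replicate 4 (0.25) and within the 6-file libraries (0.20). Genes called variable numbered 135 to 219 when a library was left out (135 without replicate 1), and no member was called under any alternative; the adjusted p of Irf4 in this test ranged from 0.0981 to 0.976 over 9 settings. Genes called between 4-file and 6-file libraries numbered 95 with DESeq2, 35 with no filter on low counts, and 0 to 13 when a library was left out (13 without replicate 2, 2 without replicate 3), none of them a member; the cause was not tested. The top transcript of 1 gene, Irf3, changed in the second quantification, as did that of Irf4 without replicate 2. Among levels of single genes, pairs and transcript shares, 24 values moved by more than 1 SD between libraries. All of them did so under the second quantification, FPKM, the scaling without mitochondrial and ribosomal RNA or shares of protein-coding transcripts only. FPKM is another unit than TPM (Irf7 averaged 1595 FPKM and 2323 TPM), so the moves under FPKM reflect the unit. No paired analysis was possible because there is 1 group. Depth limits Irf4 most, at 29 to 122 counts.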
